A study of Mus musculus with 21 samples.

Results

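The genes described here are 10 regulators of apoptosis, 9 of the Bcl2 family and 1 death receptor: Bcl2, Bcl2l1, Mcl1, Bcl2l11, Bid, Bad, Bak1, Bbc3, Pmaip1 and Tnfrsf10b. They were picked by symbol, and a probe belonged to a gene when its annotated transcript did. These are 10 of the 20145 named genes on the array, and 13 probes target them. For a gene with more than 1 probe, the brightest over all 21 arrays was used. RNA came from MIN6m9 cells, a subclone of a mouse insulinoma-derived beta cell line. In the fatty acid experiment, wild-type cells were left untreated or received 400 uM palmitate, a saturated fatty acid, or 400 uM oleate, a monounsaturated one, for 48 h (3 arrays per group). The PERK experiment used cells with an Fv2E-PERK transgene, which received 1 nM AP20187, a molecule that dimerises the fusion protein and so switches on the kinase, for 6, 12, 24 or 48 h. Their controls were Fv2E-PERK cells and wild-type cells given the mock treatment (per the labels the vehicle was ethanol), and each of these 6 groups had 2 arrays. When untreated and mock cells were harvested, which promoter drives the transgene and whether the transgenic line is 1 clone is not stated in the sources used here. Wild-type cells treated with AP20187 were not analysed here. The labels do not describe the replicates as separate cultures, and the p-values below reflect the spread between samples, which may be technical only.

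Proteins of the Bcl2 family decide whether the outer mitochondrial membrane is breached. Prosurvival members (Bcl2, Bcl2l1, which encodes Bcl-xL, and Mcl1) hold back the pore-forming effectors such as Bak1, and BH3-only proteins (Bcl2l11 or Bim, Bbc3 or Puma, Bid, Bad, Pmaip1 or Noxa) bind the prosurvival proteins or the effectors and push the balance towards death. Tnfrsf10b is the mouse receptor for the death ligand TRAIL; death receptors activate caspase-8, which cleaves Bid and so ties the receptor to the mitochondrion. PERK is a kinase of the endoplasmic reticulum stress response. It lowers general translation while raising translation of the transcription factor Atf4, which in turn induces Ddit3 (CHOP), and Ddit3 and p53 family members are known regulators of several BH3-only genes and of Tnfrsf10b. In beta cells, long exposure to saturated fatty acids is a standard model of such stress and of cell death.

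Values are log2 of the scanner's processed signal minus the 75th percentile of that array, here called the level, so a gene with a level of 0 is as bright as the probe at that percentile. Levels are compared between arrays for 1 probe, never between probes. The 75th percentile signal ran from 335.8 to 459.1 units over the fatty acid arrays and from 380.5 to 823.3 over the PERK arrays, and 46.8% to 56.9% of probes lay well above background. A gene was tested, with limma over all array entries of its experiment, when it was well above background on every array of at least 1 group, and it was called when its adjusted p was under 0.05. By this rule 9 of the 10 genes were tested in both experiments, each well above background on all 21 arrays. Pmaip1 was well above background on no array, and no change is given for it. Of 10 beta cell marker genes, 9 or 10 were well above background on all arrays of each group, and the glucose transporter Slc2a2 was not well above background on any Fv2E-PERK mock, 6 h or 24 h array. Slides and groups were partly tangled. Palmitate replicate 3 lay alone on a slide apart from the other fatty acid arrays. In the PERK experiment the Fv2E-PERK mock, 6 h, 12 h and 24 h arrays shared 1 slide, and the wild-type mock and 48 h arrays shared the other.

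Proximal promoters are shown for the 5 genes with the largest changes from Fv2E-PERK mock, chosen after those values were seen. RefSeq (GRCm38.p6) listed 14 start sites for 8 of the 10 genes, and each window held 250 bases before and 50 after the start. Below are the 250 bases before the start, read in the direction of the gene, with capitals for a FOXO motif (TGTTTAC on either strand).
Bbc3, start 2 of 3, chr7:16310011-16310260, plus strand: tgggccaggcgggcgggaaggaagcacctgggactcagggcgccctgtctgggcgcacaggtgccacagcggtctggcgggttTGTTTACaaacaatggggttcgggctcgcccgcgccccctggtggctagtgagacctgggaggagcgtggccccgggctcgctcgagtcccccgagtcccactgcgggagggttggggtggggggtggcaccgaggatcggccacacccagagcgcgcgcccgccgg
Bcl2l11, start 1 of 2, chr2:128125788-128126037, plus strand: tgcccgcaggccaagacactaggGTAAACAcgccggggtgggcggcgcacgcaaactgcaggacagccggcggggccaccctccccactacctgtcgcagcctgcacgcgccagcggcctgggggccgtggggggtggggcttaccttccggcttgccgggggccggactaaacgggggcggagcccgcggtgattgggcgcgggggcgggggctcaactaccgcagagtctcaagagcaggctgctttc
Bid, chr6:120916825-120917074, minus strand: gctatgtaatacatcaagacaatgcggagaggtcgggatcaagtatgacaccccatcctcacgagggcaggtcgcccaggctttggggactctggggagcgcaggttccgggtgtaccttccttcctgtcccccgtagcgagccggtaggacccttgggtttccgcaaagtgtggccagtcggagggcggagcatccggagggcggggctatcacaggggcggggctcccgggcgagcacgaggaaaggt
Bak1, chr17:27028628-27028877, minus strand: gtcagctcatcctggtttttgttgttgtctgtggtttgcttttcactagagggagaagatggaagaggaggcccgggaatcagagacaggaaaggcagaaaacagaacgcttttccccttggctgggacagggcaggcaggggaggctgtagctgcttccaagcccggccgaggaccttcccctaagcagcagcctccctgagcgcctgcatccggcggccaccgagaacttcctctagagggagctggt
Mcl1, chr3:95658471-95658720, plus strand: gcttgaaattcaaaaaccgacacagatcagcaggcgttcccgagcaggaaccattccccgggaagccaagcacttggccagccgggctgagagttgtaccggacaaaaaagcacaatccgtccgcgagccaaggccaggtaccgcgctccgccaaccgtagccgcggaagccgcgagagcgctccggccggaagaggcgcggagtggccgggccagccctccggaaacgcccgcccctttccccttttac
The windows of the family were rich in G and C, with a median GC content of 65.8% over the 14 windows and 52.7% over all 32851 windows of the RefSeq table. Searched on both strands, the CARE motif of Atf4 and CHOP dimers (TGATGNAA, in 3.97% of all windows), the cyclic AMP response element (TGACGTCA, 1.79%) and the endoplasmic reticulum stress element (CCAAT and CCACG with 9 bases between them, 0.119%) matched none of the 14 windows, and neither did a p53 element (0.0731%). The FOXO motif, in 3.65% of all windows, matched in Bbc3 at position -167 from start 2 and in Bcl2l11 at position -227 from start 1, there on the opposite strand. An E-box (CACGTG, 7.15%) began at position -64 from start 3 of Bbc3, whose window overlaps that of start 2. A missing match says only that these letters are not in this window.

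With palmitate 3 of the 9 measured genes rose, the BH3-only genes Bid and Bbc3 and the receptor Tnfrsf10b, and none fell. Over all 21281 entries tested, 20.1% were called, 7.42% higher and 12.6% lower. Bid rose 1.68-fold and Tnfrsf10b 1.71-fold, and Bbc3 rose 1.23-fold. The prosurvival genes, the effector Bak1 and the BH3-only genes Bcl2l11 and Bad were not called. The question behind these arrays, as the labels put it, was how a saturated and an unsaturated fatty acid differ from no fatty acid.

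Bid, the BH3-only protein that caspase-8 activates, had levels of -0.68, -0.76 and -0.76 on the untreated arrays, -0.71, -0.70 and -0.78 with oleate and 0.08, 0.03 and -0.08 with palmitate. Every palmitate array was above every other array, and the untreated and oleate arrays overlapped. The palmitate change was 0.74 ± 0.057 (SE of the log2 change, here and below) against untreated cells (limma, adjusted p = 0.00019) and 0.74 ± 0.057 against oleate (limma, adjusted p = 0.00024). With oleate the difference from untreated cells was 0.01 ± 0.057 (limma, adjusted p = 0.97).

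Tnfrsf10b, the TRAIL receptor, gave -2.13, -2.25 and -2.31 without fatty acid, -2.28, -2.31 and -2.31 with oleate, and -1.62, -1.31 and -1.44 with palmitate. Again the palmitate arrays stood above the rest with no overlap. The receptor rose by 0.78 ± 0.083 against untreated cells (limma, adjusted p = 0.00091) and by 0.85 ± 0.083 against oleate (limma, adjusted p = 0.00075). It was among the dimmer members, so part of each value is close to background, and with normexp background correction the palmitate change was 0.43.

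Bbc3, which encodes Puma, was at 3.01, 2.97 and 3.0 untreated, at 2.84, 2.71 and 2.88 with oleate and at 3.29, 3.28 and 3.31 with palmitate. The 3 groups did not overlap, with oleate lowest and palmitate highest. The rise with palmitate was 0.30 ± 0.055 against untreated cells (limma, adjusted p = 0.0082) and 0.48 ± 0.055 against oleate (limma, adjusted p = 0.0014). Oleate and untreated cells differed by -0.18 ± 0.055, which was not called (limma, adjusted p = 0.17).

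**Figure D1:**
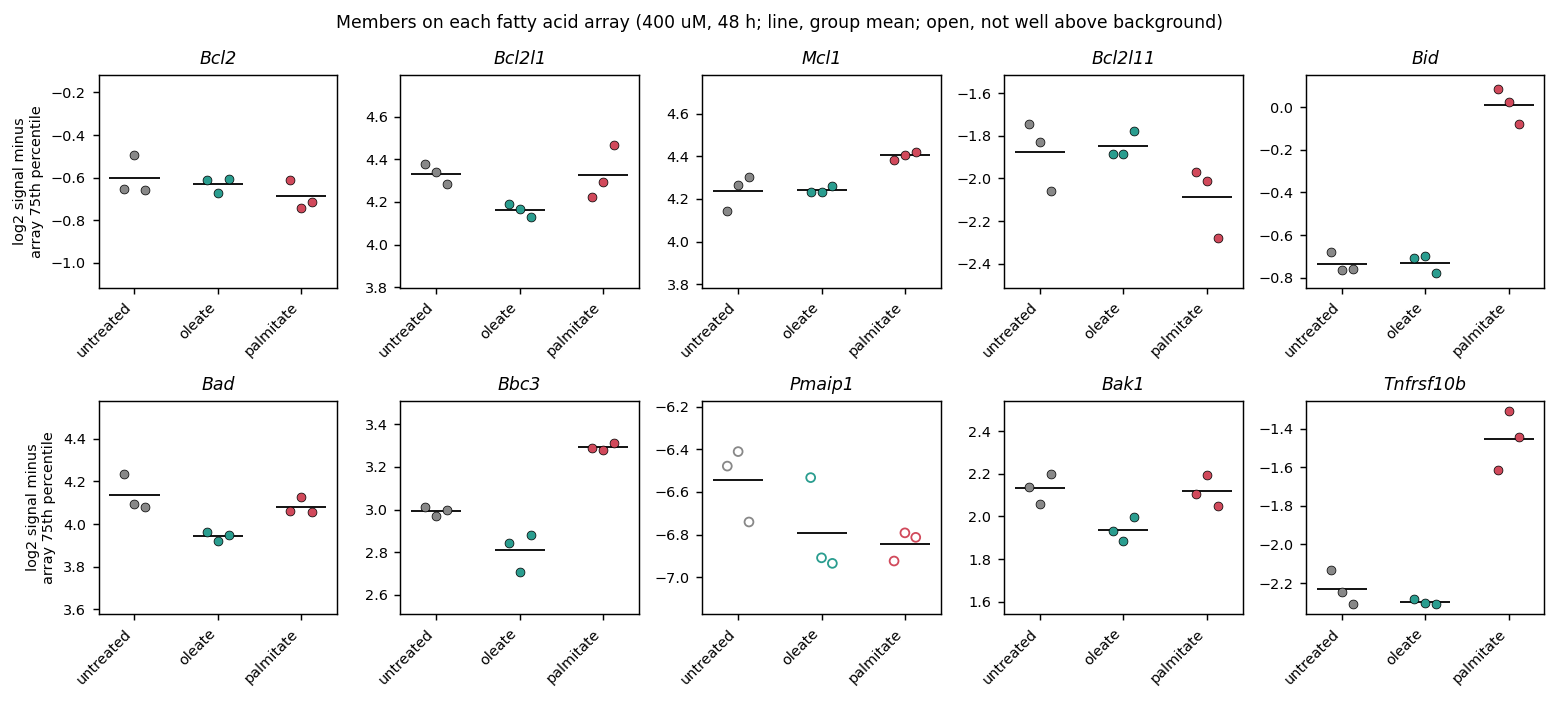
Levels (log2 signal minus the array's 75th percentile, y axis, scaled per gene) of the 10 genes on each array of the untreated, oleate and palmitate groups; lines are group means, and open circles were not well above background. Bid, Bbc3 and Tnfrsf10b lie higher on all 3 palmitate arrays than on any other array, and all Pmaip1 points are open.

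Among the prosurvival genes, Mcl1 read 4.15, 4.27 and 4.30 untreated, 4.23, 4.23 and 4.26 with oleate and 4.38, 4.41 and 4.42 with palmitate. The palmitate arrays were the highest, by a small step, and this step of 0.17 ± 0.052 was not called (limma, adjusted p = 0.058). It was called with quantile normalization, where it was 0.22, and its sign turned in the deposited series matrix values, where it was -0.06. Bcl2 was at -0.65, -0.49 and -0.66 untreated, -0.61, -0.67 and -0.60 with oleate and -0.61, -0.74 and -0.71 with palmitate. All 3 groups overlapped, and the palmitate difference was -0.09 ± 0.063 (limma, adjusted p = 0.38), and 0.12 with spike-in scaling. Bcl2l1 was at 4.38, 4.34 and 4.28 untreated, 4.19, 4.17 and 4.13 with oleate and 4.22, 4.29 and 4.46 with palmitate. Its oleate arrays were the lowest without overlap, at -0.17 ± 0.068 from untreated cells (limma, adjusted p = 0.27), and the palmitate arrays spanned the untreated ones.

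The remaining genes stayed within narrow ranges. Bcl2l11, which encodes Bim, was at -1.75, -1.83 and -2.06 untreated, -1.89, -1.89 and -1.78 with oleate and -1.97, -2.01 and -2.28 with palmitate, with overlap between the palmitate and untreated arrays (-0.21 ± 0.11, limma, adjusted p = 0.21; 0.00 with spike-in scaling). Bad, a BH3-only protein controlled by phosphorylation, ran from 4.08 to 4.23 untreated, from 3.92 to 3.96 with oleate and from 4.06 to 4.13 with palmitate. For Bak1, which forms pores in the mitochondrial membrane, the ranges were 2.06 to 2.20, 1.89 to 2.0 and 2.05 to 2.20 in the same order. Bad and Bak1 were thus lowest on the oleate arrays, with differences from untreated cells of -0.19 ± 0.055 and -0.20 ± 0.061 that were not called (limma, adjusted p = 0.16 and 0.18).

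Oleate changed none of the 9 genes by limma after adjustment, where 0.836% of all entries were called. At an unadjusted p under 0.05, 4 of the 9 differed, Bcl2l1, Bad, Bak1 and Bbc3, all lower with oleate, although the dimmer Bcl2l1 probe gave 0.10, and the same 4 genes had no overlap between the groups (25.5% of all entries had none). Palmitate against oleate called 3 of the 9, again Bid, Bbc3 and Tnfrsf10b (13.7% of entries, 7.48% higher and 6.27% lower). Both comparisons use the oleate arrays, and both palmitate comparisons use the palmitate arrays, so they are not independent. Against oleate, 8 of the 9 genes had no overlap, with 38.6% of all entries doing so.

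**Figure D2:**
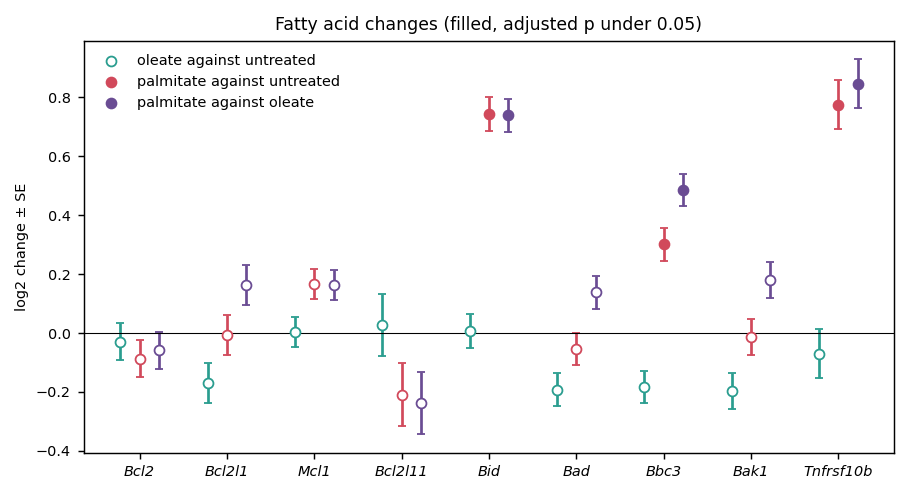
Log2 change ± SE (y axis) of the 9 measured genes for oleate against untreated, palmitate against untreated and palmitate against oleate; filled points had an adjusted p under 0.05. The filled points are Bid, Bbc3 and Tnfrsf10b in the palmitate comparisons, between 0.30 and 0.85.

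Transcripts of heart and skeletal muscle moved with the fatty acid groups. The summed linear level of 9 heart muscle markers was 13.9 to 18 on the untreated and 15 to 16.5 on the oleate arrays, where 8 of the 9 were well above background on every array, and 0.364 to 1.19 on the palmitate arrays, where 2 of the 9 were and Tnnt2, Tnni3, Mybpc3 and Myl7 were on none. The sum of 10 skeletal muscle markers was 19.1 and 19.5 on palmitate replicates 1 and 2, and 1.27 on palmitate replicate 3, with 1.55 to 1.92 over the untreated and oleate arrays. Their part in the palmitate results was not tested. Without palmitate replicates 1 and 2, and so on replicate 3 alone, the change against untreated cells was 0.66 for Bid and 0.79 for Tnfrsf10b, both still called, and 0.32 for Bbc3, no longer called, with the lone array assumed to vary like the other groups. Without replicate 3, and so within 1 slide, it was 0.79 for Bid, 0.77 for Tnfrsf10b and 0.29 for Bbc3, all called. In the deposited series matrix values the same changes were 0.52, 0.55 and 0.08, and none was called.

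Most of these genes changed when Fv2E-PERK cells received AP20187. Against the Fv2E-PERK mock arrays, Mcl1, Bcl2l11, Bak1 and Bbc3 rose at 6, 12, 24 and 48 h, Bid fell at 6 h and was 4.13-fold and 4.91-fold higher at 24 and 48 h, and Bcl2 rose at 6 and 12 h. At 48 h Bcl2, Bcl2l1 and Bad were below the mock arrays, though above them with spike-in scaling, and Tnfrsf10b was higher. Of 9 genes, 5 rose and 1 fell at 6 h, 5 rose and 1 fell at 12 h, 5 rose and 0 fell at 24 h, and 6 rose and 3 fell at 48 h, while with spike-in scaling 6, 7, 9 and 6 rose and none fell. Most of the array moved too: 64.9%, 67.7%, 67.4% and 61.8% of the 23388 entries tested were called at 6, 12, 24 and 48 h. The members' shares of calls were therefore near the background at 6 and 12 h and below it at 24 h. The upward direction was less common on the array, with 24.9%, 27.2%, 27.0% and 27.2% of entries called higher and 40.0%, 40.5%, 40.4% and 34.6% called lower. The median change of the 9 genes was 0.49, 0.36, 1.1 and 0.60, against -0.23, -0.19, -0.20 and -0.07 for all entries. All 4 comparisons share the same 2 mock arrays. Markers of the cell type moved with these groups. The summed linear level of 10 beta cell markers was 2144 to 2367 on the Fv2E-PERK mock arrays, 1446 to 1677 over the 6, 12 and 24 h arrays, 1856 to 2008 at 48 h and 2287 to 2565 on the wild-type mock arrays. The sum of 4 markers of other islet endocrine cells, all well above background on every array, was 64.9 to 66.4 on the Fv2E-PERK mock arrays, 29.9 to 37.6 at 6, 12 and 24 h, 44.4 to 46.7 at 48 h and 24.9 to 26.5 in wild-type mock cells. Their part in the results was not tested. In bulk RNA, fewer cells of a kind and less RNA per cell cannot be told apart.

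The level of each gene rests on the scaling of its array. Scaled to the spike-in control probes instead of the 75th percentile, the median change of all entries moved up by 0.66, 0.77, 1.00 and 0.75 at 6, 12, 24 and 48 h, and by 0.21 for palmitate against untreated cells. Changes below are relative to the array's 75th percentile, and for changes from mock the spike-in value stands beside each one whose direction turned. Since the 48 h arrays and the Fv2E-PERK mock arrays lay on different slides, slide and time cannot be told apart in the 48 h comparisons with mock or with 6 h.

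**Figure D3:**
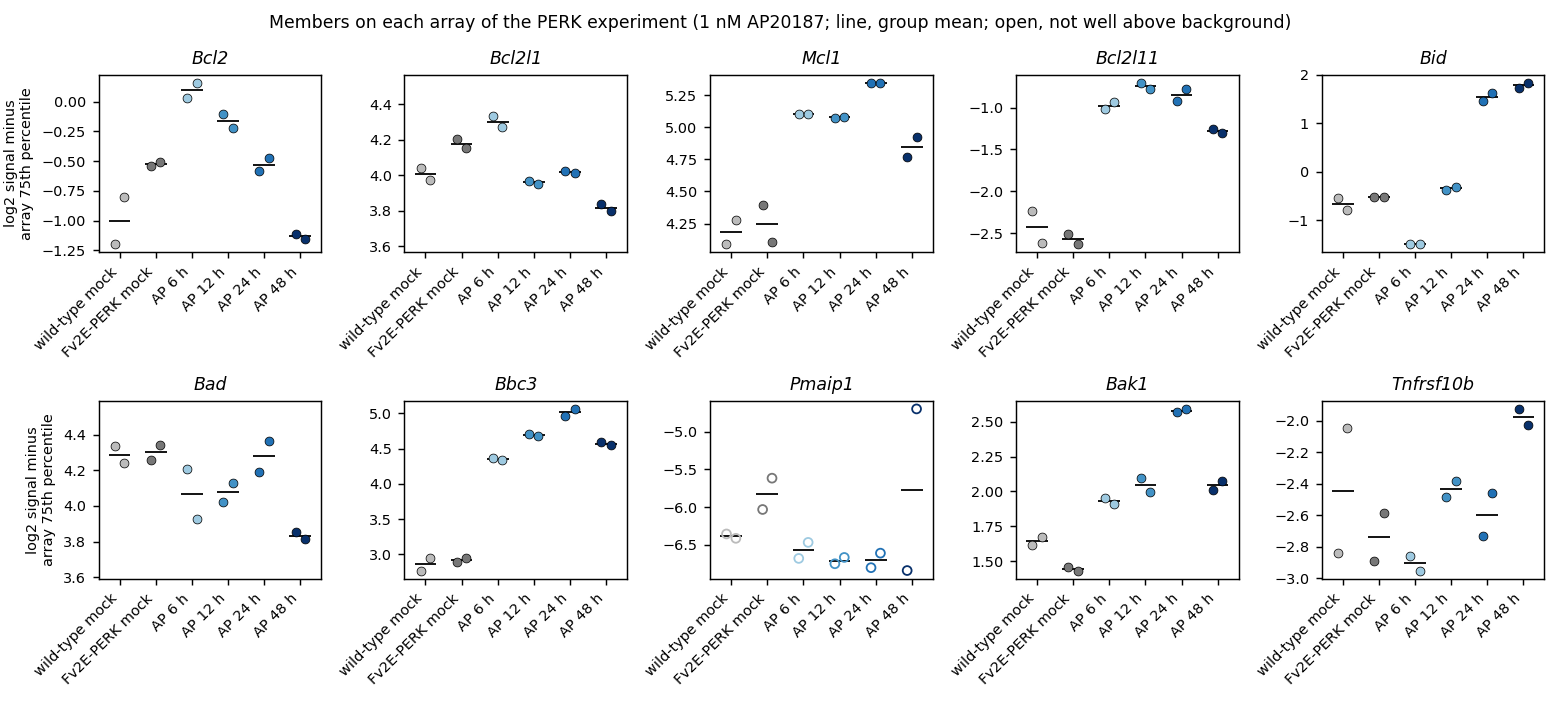
Levels (log2 signal minus the array's 75th percentile, y axis, scaled per gene) of the 10 genes on each of the 2 arrays per group of the PERK experiment, with group means as lines and open circles where the probe was not well above background. Bcl2l11 and Bbc3 sit higher on all 8 arrays with AP20187 than on the 4 mock arrays, and Bid is lowest at 6 h and highest at 48 h.

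Mcl1, a prosurvival protein with a short half-life, was at 4.40 and 4.10 on the Fv2E-PERK mock arrays, 5.11 and 5.10 after 6 h, 5.08 and 5.08 after 12 h, 5.34 and 5.35 after 24 h and 4.77 and 4.92 after 48 h. All arrays with AP20187 were above the mock arrays, and the 24 h pair was the highest. The rises were 0.85, 0.83, 1.1 and 0.60 (each ± 0.11), with limma adjusted p from 5.7e-05 at 24 h to 0.0019 at 48 h. The second, dimmer Mcl1 probe gave 1.77, 1.79, 1.40 and 0.64, all called. For that probe the 48 h arrays were lower than the 6 h arrays by 1.14 on the log2 scale, which was called, whereas the brightest probe differed by -0.26 ± 0.11 between those times (limma, adjusted p = 0.077).

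Bcl2, the founding prosurvival member, had levels of -0.54 and -0.51 on the mock arrays, 0.03 and 0.16 after 6 h, -0.11 and -0.22 after 12 h, -0.59 and -0.47 after 24 h and -1.11 and -1.15 after 48 h. It was thus highest at 6 h, back among the mock values at 24 h, and lowest at 48 h. The change was 0.62 ± 0.13 at 6 h (limma, adjusted p = 0.0028), 0.36 ± 0.13 at 12 h (limma, adjusted p = 0.033) and -0.00 ± 0.13 at 24 h (limma, adjusted p = 0.98; 0.99 with spike-in scaling), with a fall of -0.60 ± 0.13 at 48 h (limma, adjusted p = 0.0034) that read 0.15 with spike-in scaling. The 12 h call was lost when any 1 of its 4 arrays was left out, with changes of 0.30 to 0.42. Between 6 h and 48 h Bcl2 fell by 1.23 ± 0.13 (limma, adjusted p = 9.1e-05), and by 1.13 with spike-in scaling.

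Bcl2l1 gave 4.20 and 4.15 on the mock arrays, 4.33 and 4.27 after 6 h, 3.97 and 3.95 after 12 h, 4.02 and 4.01 after 24 h and 3.84 and 3.8 after 48 h. No time point overlapped the mock pair, with 6 h above it and the later times below it. The changes were 0.12 ± 0.065 at 6 h and -0.16 ± 0.065 at 24 h (0.84 with spike-in scaling), neither called, -0.22 ± 0.065 at 12 h (limma, adjusted p = 0.017; 0.56 with spike-in scaling) and -0.36 ± 0.065 at 48 h (limma, adjusted p = 0.0016; 0.39 with spike-in scaling). The dimmer Bcl2l1 probe differed by -0.36 at 12 h, which was called, and by -0.15 at 48 h, which was not. The small falls of this gene therefore depend on the scaling and on the probe.

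Bcl2l11 was at -2.51 and -2.63 on the mock arrays, -1.02 and -0.93 after 6 h, -0.70 and -0.77 after 12 h, -0.93 and -0.77 after 24 h and -1.25 and -1.30 after 48 h. All 8 arrays with AP20187 stood more than 1 unit above the mock pair, and the 12 h pair had the highest mean. Expressed as folds, Bim transcript rose 3.02-fold at 6 h, 3.56-fold at 12 h, 3.30-fold at 24 h and 2.46-fold at 48 h. The log2 changes were 1.59, 1.83, 1.72 and 1.30 (each ± 0.13), with limma adjusted p between 7.3e-06 and 5.7e-05, and none of the alternatives tried ended a call. Their size did depend on the processing. Over the alternatives it ran from 0.955 to 2.253 at 6 h, 1.101 to 2.606 at 12 h, 1.049 to 2.717 at 24 h and 0.659 to 2.05 at 48 h. From 6 h to 48 h the difference of -0.30 ± 0.13 was not called (limma, adjusted p = 0.073).

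Bbc3, the Puma gene whose promoter is printed above, was at 2.90 and 2.94 on the mock arrays, 4.37 and 4.34 after 6 h, 4.71 and 4.68 after 12 h, 4.97 and 5.06 after 24 h and 4.59 and 4.55 after 48 h. The level climbed in steps that exceeded the spread of the pairs up to 24 h and was lower at 48 h. Its rises of 1.44, 1.77, 2.10 and 1.65 (each ± 0.079) correspond to 2.71-, 3.42-, 4.27- and 3.14-fold. Limma adjusted p ranged from 6.4e-07 at 24 h to 3.9e-06 at 6 h. The 48 h arrays exceeded the 6 h arrays by 0.22 ± 0.079 (limma, adjusted p = 0.043), a call lost in 11 of 23 alternatives, among them leaving out any 1 of the 6 h, 48 h, 12 h or mock arrays of Fv2E-PERK cells.

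**Figure D4:**
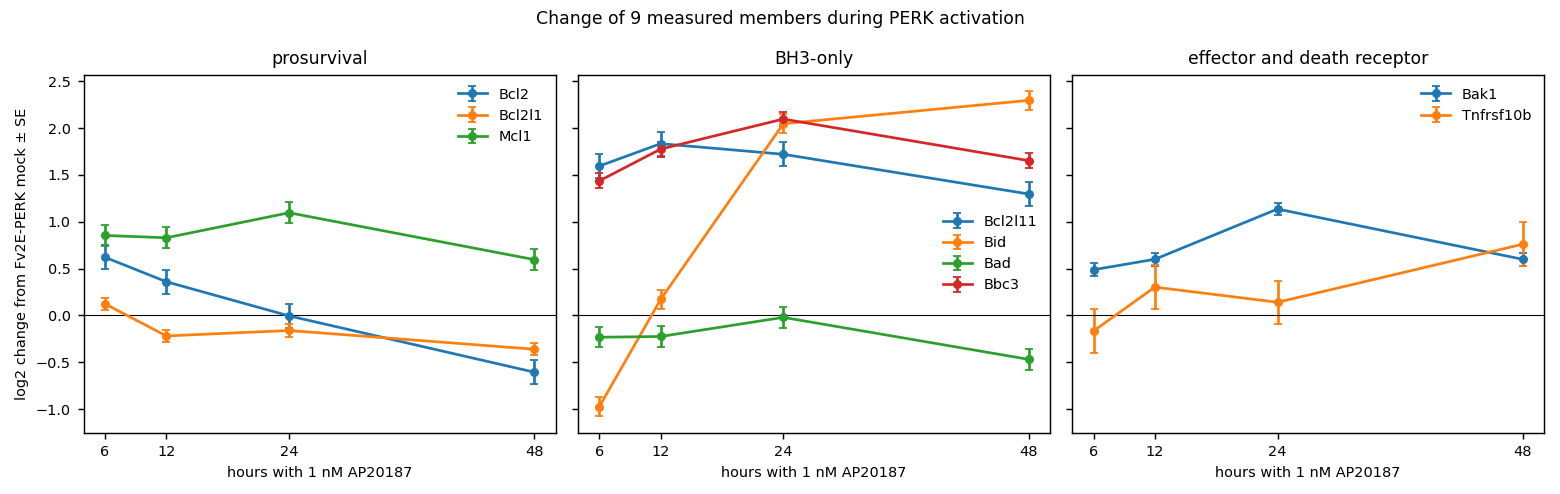
Log2 change ± SE from the Fv2E-PERK mock arrays (y axis) of the 9 measured genes against hours with 1 nM AP20187 (x axis), in panels for prosurvival genes, BH3-only genes, and effector with death receptor. Bid runs from -0.97 at 6 h to 2.30 at 48 h, while Bcl2 runs from 0.62 to -0.60 (0.15 at 48 h with spike-in scaling).

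Bid had the widest span of the 9 genes. It read -0.51 and -0.51 on the mock arrays, -1.49 and -1.48 after 6 h, -0.37 and -0.31 after 12 h, 1.45 and 1.62 after 24 h and 1.73 and 1.84 after 48 h. The 6 h pair lay below the mock pair, the 12 h pair just above it, and the 24 h and 48 h pairs far above it. Bid fell by 0.97 ± 0.10 at 6 h (limma, adjusted p = 7.5e-05; -0.31 and not called with spike-in scaling), differed by 0.17 ± 0.10 at 12 h (limma, adjusted p = 0.17), and rose by 2.05 ± 0.10 at 24 h (limma, adjusted p = 1.9e-06) and 2.30 ± 0.10 at 48 h (limma, adjusted p = 1.6e-06). Tested directly, the 48 h arrays were 9.64-fold above the 6 h arrays, a log2 difference of 3.27 ± 0.10 (limma, adjusted p = 1.4e-06), and 3.36 with spike-in scaling.

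Bad varied little. Its levels were 4.26 and 4.34 on the mock arrays, 4.21 and 3.93 after 6 h, 4.03 and 4.13 after 12 h, 4.19 and 4.37 after 24 h and 3.85 and 3.82 after 48 h. The 6 h pair enclosed the 12 h pair, and the 48 h pair was the lowest. The 48 h value was -0.47 ± 0.11 from mock (limma, adjusted p = 0.0057), 0.29 with spike-in scaling, and -0.38 and not called with the dimmer Bad probe. At 6, 12 and 24 h it differed by -0.23, -0.22 and -0.02, none called (0.43, 0.55 and 0.98 with spike-in scaling).

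Pmaip1, which encodes Noxa, had values from -6.84 to -4.70 over the 12 PERK arrays and from -6.94 to -6.41 over the 9 fatty acid arrays. All lay at background, and the single value of -4.70, on 48 h replicate 2, was not flagged by the scanner software as well above background either. Its partner on the other 48 h array was -6.84.

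Bak1, the effector, was at 1.46 and 1.43 on the mock arrays, 1.95 and 1.91 after 6 h, 2.09 and 1.99 after 12 h, 2.57 and 2.59 after 24 h and 2.01 and 2.08 after 48 h. All AP20187 arrays were above the mock arrays, the 24 h pair clearly highest, and the 12 h and 48 h pairs overlapped. Bak1 rose by 0.49, 0.60, 1.14 and 0.60 (each ± 0.069), that is 1.40- to 2.20-fold, with limma adjusted p from 4.4e-06 at 24 h to 0.00039 at 6 h.

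Tnfrsf10b was noisier than the other genes, at -2.89 and -2.59 on the mock arrays, -2.85 and -2.95 after 6 h, -2.49 and -2.38 after 12 h, -2.73 and -2.46 after 24 h and -1.93 and -2.03 after 48 h. The 6 h and 24 h pairs overlapped the mock pair, and the 48 h pair was above all other AP20187 arrays. It rose by 0.76 ± 0.23 at 48 h (limma, adjusted p = 0.020) and by 0.93 ± 0.23 between 6 h and 48 h (limma, adjusted p = 0.0086). At 6, 12 and 24 h the differences of -0.17 (0.49 with spike-in scaling), 0.30 and 0.14 were not called. The 48 h call against mock was lost without Fv2E-PERK mock replicate 1 (0.61), without 48 h replicate 1 (0.71) or 2 (0.81), and with normexp background correction (0.21). The receptor's wild-type mock arrays, at -2.84 and -2.05, were as far apart as the group means.

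Between 48 h and 6 h, 3 of the 9 genes rose (Bid, Bbc3 and Tnfrsf10b) and 2 fell (Bcl2 and Bcl2l1), where 60.8% of all entries were called, 33.2% higher and 27.6% lower. Bcl2l1 fell by 0.48 ± 0.065 (limma, adjusted p = 0.00036), and by 0.39 without a call with spike-in scaling. The dimmer Bcl2l1 probe differed by -0.115, not called. Bak1, at 0.11 ± 0.069, and Bad, at -0.24 ± 0.11, were not called. Among these 9 genes, the 2 BH3-only genes with the greatest rise at 6 h, Bcl2l11 and Bbc3, thus kept raised levels at 48 h, while Bid crossed from below to above the mock level.

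The mock arrays of Fv2E-PERK and wild-type cells, which lay on different slides so that slide and genotype cannot be told apart, differed in 1 of the 9 genes (20.0% of all entries were called, 9.23% higher and 10.8% lower). Bcl2 was at -1.20 and -0.80 in wild-type cells and at -0.54 and -0.51 in Fv2E-PERK cells. The wild-type pair was wide, and the 2 groups did not overlap. The difference of 0.47 ± 0.13 (limma, adjusted p = 0.034) was lost in 8 of 23 alternatives, and it was 0.28 without wild-type mock replicate 1. The dimmer Bcl2l1 probe was 0.69 ± 0.13 higher in Fv2E-PERK cells, called, where the brightest probe gave 0.17 ± 0.065, not called. The other 8 genes differed by -0.29 to 0.17.

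On the slide that held both the 48 h and the wild-type mock arrays, a comparison added after the data were seen and one in which genotype differs too, 5 of the 9 genes were higher at 48 h and 2 lower (63.8% of entries called, 27.5% higher and 36.3% lower). Mcl1 was higher by 0.66 ± 0.11, Bcl2l11 by 1.15 ± 0.13, Bid by 2.45 ± 0.10, Bak1 by 0.40 ± 0.069 and Bbc3 by 1.72 ± 0.079. These 5 changes thus had the same direction and a similar size within the slide as against the Fv2E-PERK mock arrays. Bad was lower by 0.46 ± 0.11 (0.35 higher with spike-in scaling), and Bcl2l1 was lower by 0.19 ± 0.065 with the brightest probe (0.61 higher with spike-in scaling) but 0.54 ± 0.13 higher, and called, with the dimmer probe. Bcl2 differed by -0.13 ± 0.13 (0.67 with spike-in scaling) and Tnfrsf10b by 0.47 ± 0.23, neither called. The corresponding values against the Fv2E-PERK mock arrays, on the other slide, were -0.60 for Bcl2 and 0.76 for Tnfrsf10b.

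Ordered by group mean in the PERK experiment, the 48 h group was the lowest of the 6 for Bcl2 (-1.13), Bcl2l1 (3.82) and Bad (3.83), and the highest for Bid (1.78) and Tnfrsf10b (-1.98). The 24 h group was the highest for Mcl1 (5.35), Bak1 (2.58) and Bbc3 (5.02), and the 12 h group for Bcl2l11 (-0.74). Some pairs of neighbouring groups in these orders overlapped. How often neighbours overlap over all entries was not counted, so separation is not shown to be particular to these genes. Among groups with AP20187 these were 12 h with 24 h for Bcl2l11, 6 h with 12 h for Bad and 12 h with 48 h for Bak1. Between a time and a mock group they were 48 h with wild-type mock and 24 h with Fv2E-PERK mock for Bcl2, 24 h with wild-type mock for Bcl2l1 and for Bad, and 4 pairs for Tnfrsf10b, whose groups overlapped from 6 h, the lowest, up to 12 h. The mock groups of both genotypes overlapped as neighbours for Mcl1, Bcl2l11, Bad and Bbc3. Bid had no overlapping neighbours. In the fatty acid groups no neighbouring pair overlapped for Bbc3. Bcl2l11, Bbc3 and Mcl1 had similar profiles: over the 21 arrays, centred within each experiment, Pearson r was 0.90 between Bbc3 and Bcl2l11, 0.95 between Bbc3 and Mcl1 and 0.89 between Bcl2l11 and Mcl1. Bid had r of -0.58 with Bcl2. The arrays fall into groups and share treatments, so these r values describe the arrays and carry no test.

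Among all 12862 named entries tested in both experiments, those most like each gene on the same measure were Angptl8 (r = 0.99), Etv4 and Qtrt1 for Bbc3, Mtss1 (0.98), Zfp821 and Zswim9 for Bcl2l11, and Wdr3 (0.98), Wdr75 and Yars2 for Mcl1. For Bid they were Tmem251 (0.98), Reps2 and Diaph2, for Bak1 Clba1 (0.96), Atg101 and Gfus, and for Bcl2 Baiap2 (0.95), Pms1 and Rell1. Bcl2l1 (Mrpl4, 0.87) and Tnfrsf10b (Cpne7, 0.85) had looser best matches.

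The wider pathway was followed in 60 other genes in 9 lists, of which 52 were tested in the fatty acid and 53 in the PERK experiment. With palmitate 14 of the 52 rose and 8 fell (13 and 0 with spike-in scaling), with oleate 0 rose and 1 fell, and with palmitate against oleate 12 rose and 2 fell (12 and 0 with spike-in scaling). With AP20187, 26 of 53 rose and 14 fell at 6 h, 26 rose and 14 fell at 12 h, 24 rose and 16 fell at 24 h, and 16 rose and 19 fell at 48 h, where spike-in scaling gave 30 and 4, 34 and 3, 41 and 2, and 30 and 4. These counts stand against the 64.9%, 67.7%, 67.4% and 61.8% of all entries called, of which the smaller part was higher, and against 43.8%, 53.2%, 63.2% and 57.4% called with spike-in scaling, of which 89.1% to 94.6% were higher. For palmitate the shares of all entries were 20.1%, and 6.81% with spike-in scaling. The palmitate falls named below, of Foxo1, Bnip3l, Tnfsf10, Traf2, Fadd and Casp2, were thus not called with spike-in scaling, although each value stayed below 0. In the list of transcriptional regulators of these genes, 6 of 10 rose with palmitate and 8, 8, 8 and 7 of 10 rose at the 4 times with AP20187. The median change of that list was 0.72 with palmitate (-0.05 over all entries) and 0.83, 1.24, 1.92 and 1.73 with AP20187 (-0.23, -0.19, -0.20 and -0.07 over all entries).

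Ddit3, which encodes CHOP, was 2.01-fold higher with palmitate (1.00 ± 0.069, limma, adjusted p = 0.00011), and it rose by 0.57, 0.84, 1.55 and 1.62 (each ± 0.080) at 6, 12, 24 and 48 h. Atf4, the transcription factor downstream of PERK, rose by 0.62 with palmitate and by 0.50, 0.63 and 0.80 at 6, 12 and 24 h, and differed by 0.26 ± 0.11 at 48 h, not called. With oleate Ddit3 differed by 0.18 and Atf4 by 0.10, neither called. Atf3, a stress-induced transcription factor, was 6.14-fold higher with palmitate and 47.7- to 91.7-fold higher with AP20187. Trib3, a stress-induced pseudokinase, was 2.63-fold higher with palmitate and 10.8-fold higher at 24 h. Trp53, which encodes p53, had a mean level of -2.21 on the Fv2E-PERK mock arrays. It was at -1.11, -0.56, 0.08 and 0.20 at 6, 12, 24 and 48 h, and was 1.32 higher at 48 h than at 6 h. Foxo1, whose motif stands in the Bbc3 and Bcl2l11 windows printed above, fell by 0.25 ± 0.057 with palmitate.

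**Figure D5:**
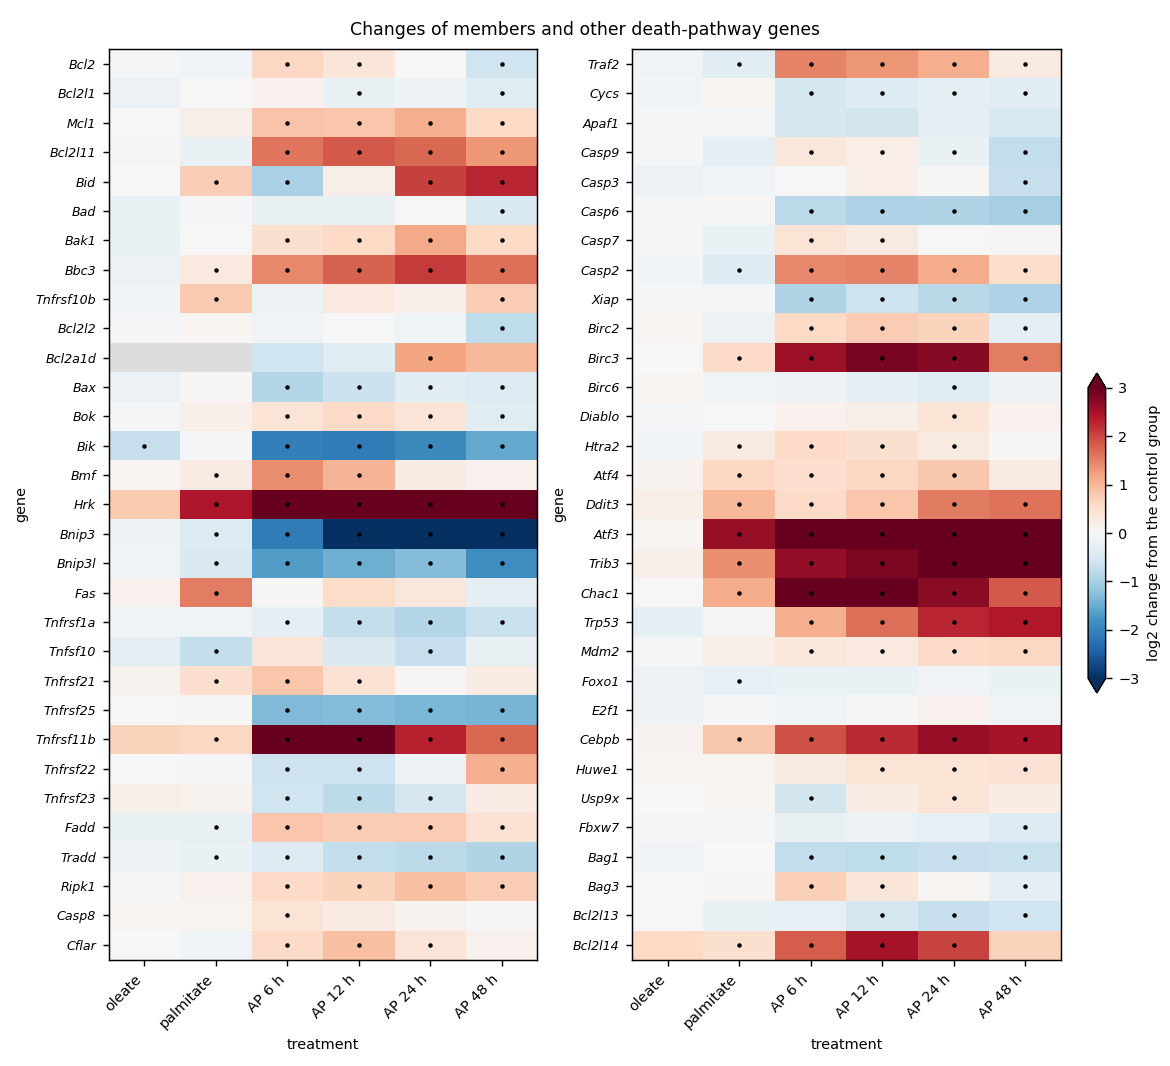
Log2 change (colour, saturated beyond 3 in either direction) of 9 measured genes and 53 other pathway genes (rows) from the control group of each treatment (columns), with a dot where the adjusted p was under 0.05 and grey where a gene was not tested. The row of Hrk is among the darkest in the AP20187 columns, where its controls were not well above background, and those of Bnip3 and Bnip3l are blue throughout those columns, although most rows shift up with spike-in scaling.

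Of the 5 other BH3-only genes, 2 rose and 2 fell with palmitate and 2 rose and 3 fell at 6 h. Hrk, which encodes Harakiri and is best known from neurons, was on no untreated or mock array well above background. Its level was -4.00 ± 0.05 (SD, n = 3) with palmitate and -6.43 ± 0.29 (SD, n = 3) in untreated cells, at least 1.71-fold higher. With AP20187 Hrk was at least 3.27-fold higher at 6 h, 11.8-fold at 12 h, 40.5-fold at 24 h and 57.9-fold at 48 h. The group mean went from -5.55 on the mock arrays to -2.37, -0.51, 1.27 and 1.78. Hrk entered the tests only through the palmitate and AP20187 groups, where it was bright, so no p-value is given as support. Here the bound sets the mean of the bright group against the lowest signal well above background on the dim arrays. Bmf, which responds to loss of attachment, rose by 1.38 and 1.02 at 6 and 12 h and was lower at 48 h than at 6 h by 1.25. Bik fell by 2.06, 2.11 and 1.93 at 6, 12 and 24 h, was 1.30 higher in Fv2E-PERK than in wild-type mock cells, and was the 1 pathway gene changed by oleate (-0.69 ± 0.077, adjusted p = 0.012). Bnip3, a hypoxia-responsive gene of mitophagy, fell by 2.10, 3.0, 3.53 and 3.98 at the 4 times, and its relative Bnip3l fell by 1.87 at 48 h and by 0.44 with palmitate. With spike-in scaling the falls of Bik and Bnip3 at these times, and that of Bnip3l at 48 h, were smaller and still called.

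Of the 2 other effectors, Bax, the partner of Bak1 in forming pores, fell by 0.89, 0.65, 0.32 and 0.39 at the 4 times, but with spike-in scaling the same changes were -0.23, 0.13, 0.67 and 0.37. Bok rose by 0.40, 0.56 and 0.38 at 6, 12 and 24 h and fell by 0.36 at 48 h (0.39 and not called with spike-in scaling). Bak1 changed by more than Bax in the upward direction at each time, a gap that scaling of whole arrays cannot alter. With palmitate neither Bax nor Bok was called. In the prosurvival list, Bcl2l2, which encodes Bcl-w, fell by 0.76 at 48 h and differed by -0.00 with spike-in scaling. Bcl2a1d of the same list had a mean level of -4.53 at 24 h and of -5.72 on the Fv2E-PERK mock arrays, where it was not well above background. It was called higher at 24 h, but it entered the test only through the 24 h arrays.

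Among the other death receptors and ligands, 3 of 8 rose and 1 fell with palmitate. Fas, another receptor that activates caspase-8, was at least 1.65-fold higher with palmitate than in untreated cells, where no array was well above background. Fas entered the test only through its palmitate arrays, so its p-value is not given as support. Tnfsf10, which encodes the ligand TRAIL of Tnfrsf10b, fell by 0.71 ± 0.13 (limma, adjusted p = 0.0085). Tnfrsf11b, a soluble receptor that also binds TRAIL, was at least 3.11-, 3.27-, 1.93- and 1.28-fold higher at 6, 12, 24 and 48 h, with no Fv2E-PERK mock array well above background. With normexp background correction its 48 h value was -0.05. Tnfrsf25, a receptor of T cells, fell by 1.29 to 1.40 over the 4 times (0.36 to 0.66 lower with spike-in scaling, called at 6 h and 48 h). The decoy receptor gene Tnfrsf22 fell by 0.62 at 6 h (0.04 with spike-in scaling) and was 1.07 above mock at 48 h.

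Of the 6 genes of the receptor complex with caspase-8, 5 rose and 1 fell at 6 h. Traf2, an adaptor that recruits inhibitors of apoptosis, rose by 1.49, 1.33 and 1.09 at 6, 12 and 24 h and fell by 0.34 with palmitate. Fadd, which links receptors to caspase-8, rose by 0.83 at 6 h and fell by 0.22 with palmitate, Cflar, the inhibitor of caspase-8, rose by 0.89 at 12 h, and Tradd fell by 0.38 to 0.90 over the 4 times, though by spike-in scaling it read 0.28, 0.03, 0.21 and -0.14. In the list of inhibitors of apoptosis, Birc3 rose by 2.56, 2.86, 2.72 and 1.53 at the 4 times and by 0.57 with palmitate. Only 1 of the 2 Fv2E-PERK mock arrays was well above background for Birc3, so the size of its rises from mock is uncertain. Xiap, a direct caspase inhibitor, fell by 0.91, 0.63, 0.83 and 0.93, where spike-in scaling gave -0.25, 0.14, 0.17 and -0.18. Among caspases, Casp2 rose by 1.43, 1.5, 1.11 and 0.52 and fell by 0.38 with palmitate, and Casp6, an executioner caspase, fell by 0.81 to 0.99 over the 4 times (-0.23 to 0.10 with spike-in scaling, not called). Huwe1, a ubiquitin ligase for Mcl1, rose by 0.41 to 0.44 at 12, 24 and 48 h.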

How the data were processed

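RNA from MIN6m9 cells (150 ng per sample, Cy3, per the labels) was read on 21 one-colour mouse arrays. The deposited scanner files hold the processed signal intensity of each probe, which Agilent Feature Extraction 10.7.1.1 made per the submitters' processing notes. The authors also deposited a series matrix of log2 values, whose normalization is not stated in the sources used here. Its differences between arrays followed the log2 scanner signals with a slope of 1.0 and r of 1.0 in every array, so scale and direction are settled. The centring per probe and the constant added per array are not stated (array medians from -0.272 to 0.354 in the fatty acid and from -0.32 to 0.331 in the PERK experiment). It served as an alternative. In the planned PERK comparisons its median change over all entries lay only -0.001 to 0.002 from that of the main scaling. There it was nearly the same as the 75th percentile scaling. The level is log2 of the processed intensity minus the 75th percentile of its array. Probes were named through their transcript accessions in the RefSeq table (GRCm38.p6), and the brightest of a gene's probes was kept. Entries well above background on every array of at least 1 group were fitted with limma 3.58.1 in R 4.3.3, 1 fit per experiment, with Benjamini-Hochberg adjustment over all entries of a comparison and calls at 0.05. The fit was tested on simulated data. The number of arrays limits the precision.

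All 10 genes are described. From each pathway list, at most the 2 called genes with the largest rise and the 2 with the largest fall per comparison are named, plus Ddit3 and Atf4, and for members called in at least 3 of 9 comparisons the 3 entries with the highest correlation. Members and lists were chosen with earlier results of these data known. The second probe of a gene, fits within 1 slide and the comparison of 48 h with wild-type mock were added after the data were seen. Other alternatives were quantile normalization, normexp background correction (offset 50, on the median intensity), scaling to spike-in probes or to detected probes, the mean of a gene's probes, other filters, a variance trend, slide or replicate number as a block, and leaving out arrays. The replicate number of 1 wild-type mock array differs between its title and source name; the one in the title was taken. Replicate numbers did not pair arrays: same-numbered arrays correlated at -0.0272 to 0.0354 over 9 pairs of the fatty acid groups and at -0.00691 to 0.131 over 30 pairs of the PERK groups. These correlations use deviations from the group mean. With 2 arrays per group such deviations mirror each other, so each PERK value occurs 2 times among the 30.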

Additional observations from a re-analysis of the deposited data

Results flagged for a closer look

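In 5 of the 9 genes the change after 48 h with AP20187 differed from the change after 6 h when the 48 h and 6 h arrays were compared directly (limma, adjusted p under 0.05), as 48 h minus 6 h on the log2 scale; over all entries 60.8% did so. The difference was 3.269 for Bid, which was below mock at 6 h and above it at 48 h, 0.926 for Tnfrsf10b and 0.216 for Bbc3. It was -1.226 for Bcl2 and -0.484 for Bcl2l1, both prosurvival genes, though the dimmer Bcl2l1 probe gave -0.115, not called. The 6 h and 48 h arrays lay on different slides, so slide and time cannot be told apart. No group held 4 or more arrays, so no search for single outlying arrays was made.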

How the results depend on the processing

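Over the 9 comparisons planned, 1703 of 1863 values of the genes under alternatives kept their direction and side of the threshold, 48 lost a call, 33 gained one, 72 changed sign without a call and 7 changed sign with a call before or after. Many alternatives could not move the change itself, so the first count is no measure of robustness. Other filters, a variance trend and leaving out an array outside the groups compared altered only the error and p-value. The second probe and the mean of the probes altered only the changes of Bcl2l1, Mcl1 and Bad. The count of the 9 genes called went to 0 with the series matrix values for palmitate against untreated cells and against oleate (3 in each); in those values the array medians ran from -0.264 to 0.258 in untreated, -0.182 to 0.354 in oleate and -0.272 to -0.235 in palmitate arrays. With spike-in scaling it went from 5 to 9 at 24 h and from 5 to 3 for 48 h against 6 h. For Fv2E-PERK mock against wild-type mock, where 1 gene was called, it was 0 with normexp correction, spike-in scaling or no filter, 2 with the mean of the probes or the second probe, and 0 to 1 with 1 array left out. Leaving out 1 array gave 3 genes for palmitate in every such fit, 3 to 4 for palmitate against oleate and 0 for oleate. At 6, 12, 24 and 48 h it gave 6 to 7, 4 to 6, 5, and 8 to 9 genes. For 48 h against 6 h it gave 4 to 6. With a call before or after, values that changed sign with spike-in scaling were Bcl2l1 at 12 h (0.555), Bcl2, Bcl2l1 and Bad at 24 h (0.993, 0.837 and 0.977) and at 48 h (0.149, 0.394 and 0.286), and the same 3 genes at 48 h against wild-type mock (0.671, 0.612 and 0.346). In that comparison Bcl2l1 was also above 0 with quantile normalization (0.016), the mean of its probes (0.174) and its second probe (0.539). With no call in either, spike-in scaling also turned Bad at 6 and 12 h (0.427 and 0.55), Tnfrsf10b at 6 h (0.494), and for palmitate against untreated cells Bcl2 (0.124), Bcl2l1 (0.205), Bcl2l11 (0.002), Bad (0.157) and Bak1 (0.196), with Bcl2 against oleate (0.152). The cause was not tested.

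With the replicate number as a block, the counts of genes called stayed at their values except for 48 h against 6 h, which went from 5 to 4 as Bbc3 was lost. The numbers do not pair the arrays (0 of 9 correlations over 0.1 in the fatty acid and 4 of 30 in the PERK experiment, where each value is counted 2 times).

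Of all entries, 4268 were called for palmitate, and 549 with the series matrix, 1450 with spike-in scaling, 2266 without the filter, 2677 without palmitate replicate 1 and 1723 without palmitate replicates 1 and 2. For oleate 178 were called, and 94 with normexp, 4 with spike-in scaling, 26 without the filter, 54 with the block, 308 with a variance trend, 40 without palmitate replicates 1 and 2 and 22 to 105 in the 8 fits without 1 array that moved it by over 1.5 times. For palmitate against oleate 2926 became 409, 1630 and 1398 with the series matrix, spike-in scaling and no filter, 1406 without palmitate replicates 1 and 2, and 1398 to 1867 without any 1 oleate array or palmitate replicate 1. For 48 h against 6 h 14219 became 8941 with spike-in scaling. For mock against wild-type mock 4679 became 1347 with spike-in scaling and 2642 to 3038 without 1 of those 4 arrays. The share of calls that were higher moved with spike-in scaling from 37.0% to 90.0% (palmitate), 39.9% to 75% (oleate), 54.4% to 94.2% (palmitate against oleate), 38.4%, 40.1%, 40.1% and 44.0% to 89.1%, 89.3%, 94.6% and 93% (6, 12, 24 and 48 h), 54.6% to 67.1% (48 h against 6 h), 46.1% to 69.3% (mock against wild-type mock) and 43.1% to 91.9% (48 h against wild-type mock). It was 49.0% at 6 h with quantile normalization, 32.6% with normexp for both 48 h comparisons with mock, 47.7% for palmitate with the percentile over detected probes, 35.9% for palmitate against oleate with the series matrix, and 51.7% to 70.1% for oleate with the other 4 scalings. Signal over background limits Pmaip1, and Tnfrsf10b in part.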
